A study of Mus musculus with 45 samples.

Results

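Fatty acid synthesis in liver, kidney and brain was followed through 10 genes, namely Srebf1, Mlxipl, Acly, Acss2, Acaca, Acacb, Fasn, Me1, Thrsp and Lpin1. They were taken by symbol from a table of 22080 genes, where each had 1 row, and all 10 were tested in every comparison. The mice were male C57BL/6, 7 weeks old, with 8 on each diet, fasted for 8 h and sacrificed on day 43. Control mice received AIN-93, the standard rodent diet. The diets of the 4 other groups all held 0.5% cholesterol, alone (HCD), with 1.0% extract of the mushroom Ganoderma lucidum (HCD+Gl-1), with 1.0% extract of the same mushroom grown on substrate with 10 mM acetylsalicylic acid (HCD+Gl-2), or with 0.03% simvastatin (HCD+Sim), an inhibitor of HMG-CoA reductase. Each of the 15 groups of tissue and diet was hybridised as 3 Affymetrix mouse gene arrays. By the methods, RNA of 4 mice formed pool A, RNA of the remaining 4 formed pool B, and pool C combined both, so that 3 arrays stand for 2 separate pools. No animal was measured singly, and p-values measure only the spread between these arrays.

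In liver cells, sugar and acetate are turned into fat by a short chain of cytosolic enzymes. Acly splits citrate into acetyl-CoA, Acss2 makes acetyl-CoA from acetate, and the acetyl-CoA carboxylases Acaca and Acacb make malonyl-CoA, in the cytosol and at the mitochondrial surface respectively. Fasn joins these units into palmitate with NADPH, part of which the malic enzyme Me1 supplies. The chain is switched on after feeding by SREBP-1c, a product of Srebf1 that responds to insulin and to oxysterols through LXR, and by ChREBP, the sugar-responsive product of Mlxipl. Thrsp encodes Spot 14, a small nuclear protein that follows lipogenic genes, and Lpin1 encodes lipin 1, a phosphatidate phosphatase of triglyceride synthesis that also acts as a coactivator during fasting.

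The start sites of these genes are shown because most of the genes moved together in liver. RefSeq start sites on GRCm38.p6 were found for all 10, giving 14 windows of 300 bases (250 before the start). Both strands were searched for CCAAT, which NF-Y binds, for GGGCGG, a GC box, for CACGTG, an E-box, and for TCACNCCAC, a sterol element. CCAAT stood in 9 of the 14 windows, against 37.4% of all 32851 promoter windows, and GGGCGG in 6 windows (35.7% of all). The windows with CCAAT belonged to 8 of the 10 genes. Some genes had more than 1 window, and a share by gene was not computed. CACGTG was found in 1 of the Mlxipl windows (7.15% of all windows) and TCACNCCAC in its other one (1.24% of all). The matches overlapped only in Fasn, where CCAAT on both strands shared bases. Acaca and Lpin1 held none of the 4 in their windows. The sequences run 5′ to 3′ along the gene, with CCAAT on either strand in capitals for the first 5 and the sterol element in capitals for Mlxipl.
Fasn, chr11:120824498-120824797, minus strand: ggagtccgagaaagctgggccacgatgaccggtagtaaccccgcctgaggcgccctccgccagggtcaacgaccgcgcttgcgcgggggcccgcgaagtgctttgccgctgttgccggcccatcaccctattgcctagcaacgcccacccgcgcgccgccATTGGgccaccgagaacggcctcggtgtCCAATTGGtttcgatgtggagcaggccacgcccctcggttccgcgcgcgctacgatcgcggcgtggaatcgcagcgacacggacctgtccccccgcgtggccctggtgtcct
Thrsp, chr7:97417501-97417800, minus strand: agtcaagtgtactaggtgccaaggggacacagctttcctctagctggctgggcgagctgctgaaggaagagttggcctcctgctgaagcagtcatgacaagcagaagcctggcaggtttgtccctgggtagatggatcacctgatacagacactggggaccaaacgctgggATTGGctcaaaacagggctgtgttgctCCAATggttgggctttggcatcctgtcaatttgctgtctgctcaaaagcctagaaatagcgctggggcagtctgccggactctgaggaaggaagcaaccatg
Acly, chr11:100527951-100528250, minus strand: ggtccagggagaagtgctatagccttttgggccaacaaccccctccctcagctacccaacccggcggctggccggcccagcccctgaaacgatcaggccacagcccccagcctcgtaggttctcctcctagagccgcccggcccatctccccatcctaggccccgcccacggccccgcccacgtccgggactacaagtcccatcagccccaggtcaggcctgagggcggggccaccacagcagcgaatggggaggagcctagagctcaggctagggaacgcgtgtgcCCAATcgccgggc
Acss2, chr2:155517793-155518092, plus strand: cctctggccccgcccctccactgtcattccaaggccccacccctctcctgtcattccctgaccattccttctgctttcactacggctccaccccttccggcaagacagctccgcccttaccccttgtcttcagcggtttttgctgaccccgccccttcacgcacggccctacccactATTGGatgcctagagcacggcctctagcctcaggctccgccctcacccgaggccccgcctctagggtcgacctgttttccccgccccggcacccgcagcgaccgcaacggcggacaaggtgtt
Acacb, chr5:114165268-114165567, plus strand: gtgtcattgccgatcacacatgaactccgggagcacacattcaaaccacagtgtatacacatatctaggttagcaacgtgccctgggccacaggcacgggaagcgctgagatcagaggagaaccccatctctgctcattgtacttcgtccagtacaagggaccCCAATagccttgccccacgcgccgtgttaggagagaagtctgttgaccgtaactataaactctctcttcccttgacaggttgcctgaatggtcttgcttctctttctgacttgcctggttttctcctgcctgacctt
Mlxipl, chr5:135106641-135106940, plus strand: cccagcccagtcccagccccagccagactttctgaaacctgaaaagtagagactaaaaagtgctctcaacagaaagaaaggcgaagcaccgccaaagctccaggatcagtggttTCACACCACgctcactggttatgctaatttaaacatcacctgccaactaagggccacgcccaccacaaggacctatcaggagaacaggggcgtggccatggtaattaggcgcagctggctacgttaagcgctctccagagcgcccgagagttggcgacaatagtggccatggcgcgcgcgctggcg
In Fasn, a gene of 3 matches, CCAAT began 90, 62 and 59 bases before the start, in Thrsp 79 and 52, in Acacb 87 and in Acss2 73 bases before it, while in Acly it lay after the start. These are matches of letters and not measured binding.

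All arrays had medians between 6.76 and 6.92 on the log2 scale, and 2 arrays of a group correlated at 0.985 to 0.997. A line in the labels of liver and kidney samples speaks of brain, and tissue was taken from the sample titles. The means of 6 markers each bore those out, at 13.13 to 13.22 for hepatocytes in liver, 11.98 to 12.16 for kidney cells in kidney and 11.53 to 11.75 for neural cells in brain, with no mean above 8.69 in another tissue. The mean of 8 adipocyte markers was 6.10 to 6.59 in liver. The liver HCD+Sim arrays stood apart, with a mean of 8 pancreas acinar markers of 7.20 in pool A, 7.81 in pool B and 6.10 in pool C (5.80 to 6.08 on other liver arrays) and of 8 skeletal muscle markers of 7.47, 7.75 and 6.65 (6.38 to 7.11 elsewhere in liver). So did liver HCD+Gl-2, where the mean of 8 immediate early genes was 8.95, 7.43 and 9.44 in pools A, B and C (7.11 to 7.71 on other liver arrays), and kidney HCD+Gl-2, where it was 9.08, 8.68 and 9.17 (6.95 to 7.44 on other kidney arrays). A gene was differentially expressed (DE) where limma gave a log2 fold change above 0.7 in size with a Benjamini-Hochberg adjusted p no higher than 0.05, the thresholds used in the study. The spread behind each test was shared over all 45 arrays. For 3 arrays against 3, an exact two-sided permutation test cannot go below 0.1.

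The 10 genes were more variable between liver pools than genes at large, and in 1 direction. Their median SD over the 3 liver arrays of a group was 0.14 to 0.35 in the 5 diets, against 0.10 to 0.13 over all genes, while in kidney it was 0.04 to 0.07. Pool B was the highest of the 3 pools in 41 of the 50 combinations of gene and liver group, and pool C the lowest in 40. The same 2 counts over all genes were not computed. Pool C lay above both other pools in 8 combinations and between them in 2, whereas 26.1 to 33.4% of all genes had pool C between pools A and B. Acly, Acaca, Acacb, Fasn and Thrsp were lowest in pool C and highest in pool B in all 5 diets, and the exceptions were mostly Mlxipl and Lpin1, both highest in pool C in 3 diets. Against the log2 of the mean of pools A and B, pool C of the 10 genes was lower by a median of 0.21 in HCD and of 0.53 in HCD+Gl-2, with the 3 other diets between, and the same median over all genes was 0.02 to 0.09 above it. In kidney the medians of the 10 genes were -0.05 to 0.07 and in brain -0.15 to 0.12. The cause was not tested. Because of this spread, a fit on the 15 liver arrays alone was set beside each liver result. For HCD against Control, the spread shared over all tissues gave each of the 10 genes a smaller standard error than that fit. It was 0.24 against 0.31 for Thrsp and 0.20 against 0.29 for Fasn, so p-values of the shared fit can be too small in liver.

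**Figure D1:**
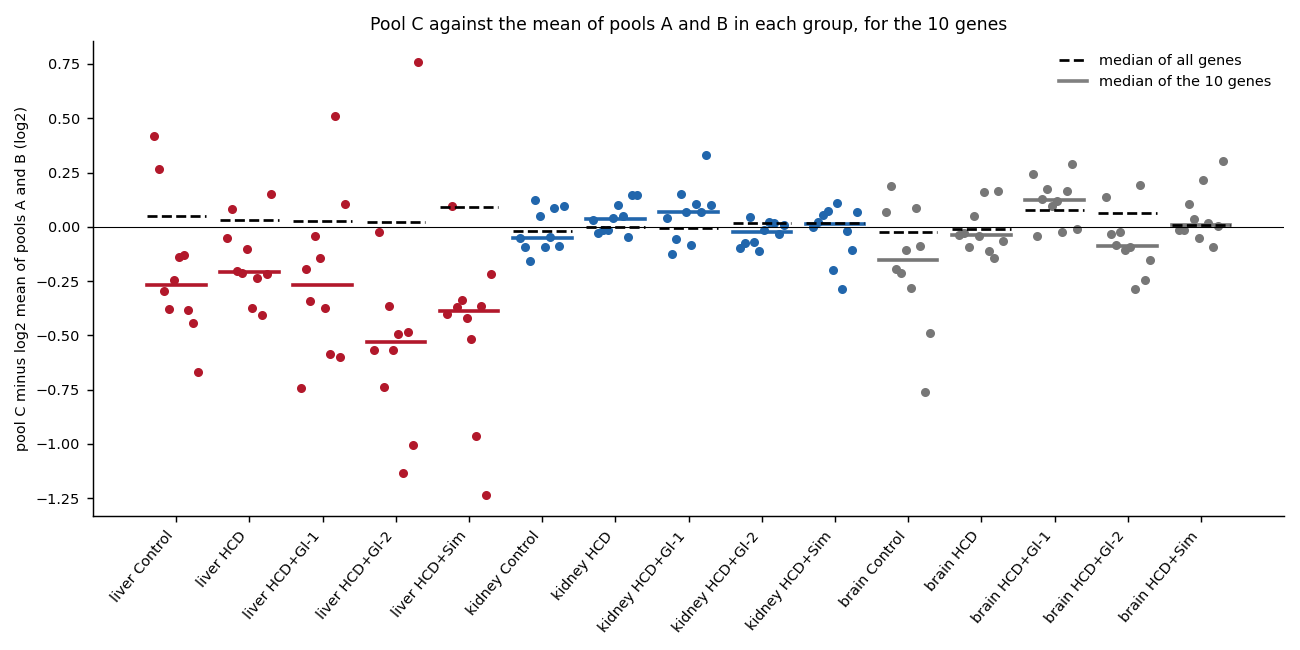
Difference on the log2 scale between pool C and the log2 mean of pools A and B in each of the 15 groups, with 1 point for each of the 10 genes, a solid line at their median and a dashed line at the median of all 22080 genes. In all 5 liver groups the median of the 10 genes lies between -0.53 and -0.21, below the dashed line, and in kidney between -0.05 and 0.07.

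Cholesterol feeding was compared with Control to see how the diet alone moved the genes. In liver, Srebf1, Thrsp and Fasn rose, 3 of the 10, against 0.104% of all genes called higher, and no member was called lower (0.14% of all). The arrays of HCD and Control did not overlap for 5 genes that were higher (6.12% of all genes) and for Acacb, which was lower (8.77% of all genes). The median of the 10 log2 fold changes was 0.39, against -0.01 over all genes. In whole tissue, a lower level can come from fewer cells of a type or from less RNA in each, which cannot be told apart here.

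Among the regulators, Srebf1 had values of 9.40, 9.32 and 9.78 in pools A, B and C of Control and 10.65, 10.67 and 10.61 in HCD. Its 3 HCD arrays differed by less than those of any other member in that group, and all lay above Control. It rose 2.2-fold, a log2 difference of 1.14 ± 0.14 (standard error), at an adjusted p of 1.78e-06, and was DE without each array in turn. Mlxipl was 11.21, 11.05 and 11.40 in Control and 11.57, 11.54 and 11.64 in HCD. These groups did not overlap either, but the log2 difference of 0.36 (adjusted p 0.00781) was under the threshold for size.

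Of the genes that supply acetyl-CoA, Acly was 9.69, 9.95 and 9.53 in Control and 10.05, 10.20 and 9.92 in HCD, and Acss2 was 10.10, 10.42 and 9.89 against 9.87, 10.08 and 9.77. Both pairs of groups overlapped, with log2 differences of 0.34 (adjusted p 0.273) and -0.23 (adjusted p 0.46). The carboxylases had differences of opposite sign. Acaca was 9.72, 9.75 and 9.49 in Control and 10.18, 10.21 and 10.10 in HCD (log2 0.51, adjusted p 0.00552), while Acacb was 9.09, 9.25 and 9.03 in Control and 8.84, 9.01 and 8.55 in HCD (log2 -0.32, adjusted p 0.296). Neither passed both thresholds.

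Downstream, Fasn was 10.29, 10.43 and 10.23 in Control and 11.19, 11.30 and 11.01 in HCD, a rise of 0.85 (adjusted p 0.0194). Thrsp was 10.41, 10.71 and 10.13 in Control and 11.50, 11.57 and 11.32 in HCD, a rise of 1.05 ± 0.24 (adjusted p 0.0112). For both genes all HCD arrays lay above all Control arrays. Me1 (log2 0.26, adjusted p 0.507) and Lpin1 (log2 0.41, adjusted p 0.398) had overlapping arrays and were not DE. Thrsp was not DE without HCD pool A (1.03), HCD pool B (0.99) or Control pool C (0.90), and Fasn was not DE without HCD pool A (0.83) or B (0.78) or Control pool A (0.83) or C (0.80). On the 15 liver arrays alone, Srebf1 was the member still DE (adjusted p 0.0273), with 0.29 for Thrsp and 0.434 for Fasn as adjusted p. The mean of 8 evening clock genes was 8.79 to 9.04 on the liver Control arrays and 9.18 to 9.31 on those of HCD, and its part in the result was not tested.

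**Figure D2:**
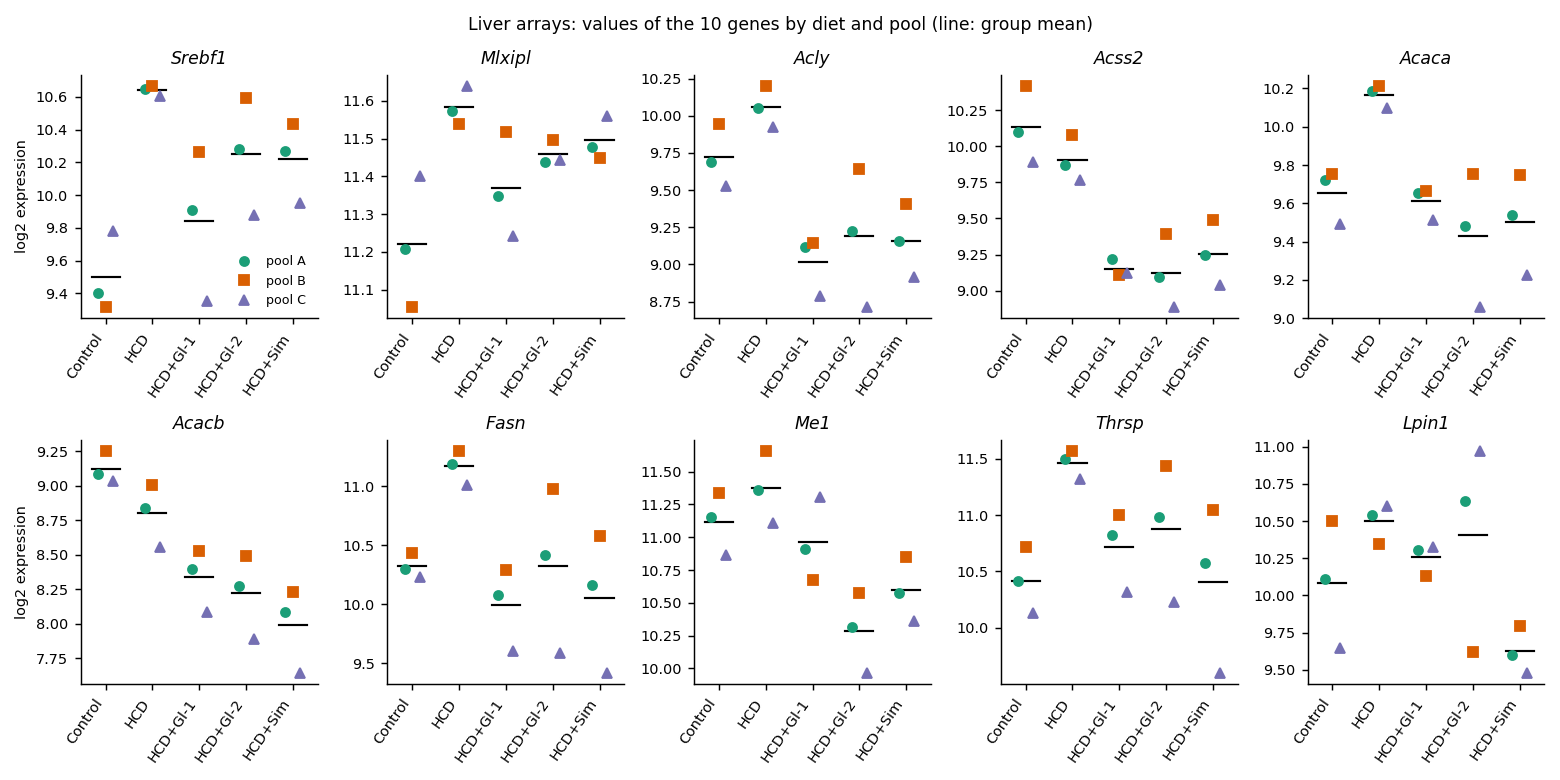
Log2 expression of each of the 10 genes on the 15 liver arrays, by diet along the x axis, with a marker for each pool and a line at the mean of 3 arrays. Srebf1, Fasn and Thrsp lie higher on all 3 HCD arrays than on the 3 Control arrays, and pool C is the lowest of its group in 40 of the 50 sets.

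The treatments were compared with HCD to ask which genes each of them moved in mice on cholesterol. These 3 comparisons share the HCD arrays, so a level that is high in HCD enters all of them. Every one of the 30 differences was below 0, and none of the 10 genes rose. With each array left out in turn, 1 of the 30 changed sign, that of Lpin1 under Gl-2, which ran from -0.37 to 0.30. The medians were -0.65 for HCD+Gl-1, -0.66 for HCD+Gl-2 and -0.80 for HCD+Sim, against -0.01, 0.01 and 0.03 over all genes.

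Under Gl-1, Fasn, Acly, Srebf1 and Acss2 fell, 4 of the 10, against 0.0679% of all genes called lower. The arrays did not overlap for 9 of the 10 (8.83% of all genes were apart and lower). Srebf1 was 9.91, 10.26 and 9.35 in pools A, B and C, between the levels of Control and HCD in pools A and B (log2 -0.80 against HCD, adjusted p 0.000891). Mlxipl, at 11.35, 11.52 and 11.24, was lower than every HCD array by a little (log2 -0.22, adjusted p 0.137). The Srebf1 arrays spread over 0.91, and without pool C of HCD+Gl-1 the Srebf1 difference was -0.55 and not DE, as on pools A and B only (-0.57).

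Acly was 9.12, 9.14 and 8.79 under Gl-1, at less than 0.5 times the HCD level (log2 -1.04 ± 0.13, adjusted p 6.77e-06). Acss2 was 9.22, 9.11 and 9.12, the tightest set of its 5 liver groups (log2 -0.75, adjusted p 7.5e-05). Both lay wholly below HCD and also below Control. Acaca at 9.66, 9.67 and 9.52 (log2 -0.55, adjusted p 0.00242) and Acacb at 8.40, 8.53 and 8.09 (log2 -0.46, adjusted p 0.0412) were wholly below HCD too, by less than the threshold.

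Fasn was 10.07, 10.29 and 9.60 under Gl-1 and had a log2 difference of -1.18 ± 0.20 (standard error; adjusted p 0.000629), the largest difference of the 10. Thrsp, at 10.82, 11.00 and 10.31, lay wholly below HCD by as much as Acss2 (log2 -0.75) but was not DE (adjusted p 0.0777). It was DE without HCD+Gl-1 pool B (-0.90), with dim genes left out (adjusted p 0.0406) and with the pool letter as a block (adjusted p 0.00781). Me1 was 10.91, 10.67 and 11.30, its one liver group with pool C highest, and overlapped HCD (log2 -0.41, adjusted p 0.083), while on pools A and B only it was DE (-0.72). Lpin1 had a difference of -0.24 (adjusted p 0.561). Acly and Fasn were DE with any 1 array left out, and Acss2 was not DE without HCD pool B (-0.67). On liver arrays alone, Acly stayed DE (adjusted p 0.0376), and the adjusted p was 0.0553 for Acss2, 0.136 for Fasn and 0.157 for Srebf1.

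Under Gl-2, Me1, Acly, Fasn, Acss2 and Acaca fell, 5 of the 10, against 0.0951% of all genes called lower. The arrays did not overlap for 8 (7.94% of all genes), the exceptions being Thrsp and Lpin1. Me1 was 10.32, 10.57 and 9.97 against 11.36, 11.66 and 11.11 in HCD, a 2.13-fold lower level (log2 -1.09 ± 0.13, adjusted p 3.4e-06). Its 3 arrays were also all below the 3 of HCD+Gl-1, and the difference between the extracts was -0.68 (95% interval -0.94 to -0.41, adjusted p 0.00275), just inside the fold threshold.

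Acly was 9.23, 9.64 and 8.71 under Gl-2 (log2 -0.87, adjusted p 8.11e-05), Acss2 9.09, 9.39 and 8.89 (log2 -0.78, adjusted p 2.98e-05) and Acaca 9.48, 9.75 and 9.06 (log2 -0.74, adjusted p 5.55e-05). Fasn was 10.41, 10.98 and 9.59 (log2 -0.84, adjusted p 0.0182). In each of these genes pool B was nearest to HCD and pool C farthest from it. Acacb was 8.27, 8.49 and 7.89 (log2 -0.58, adjusted p 0.00806), wholly below HCD but by less than the fold threshold. Without HCD+Gl-2 pool C, Acly (-0.63), Acss2 (-0.66), Acaca (-0.55) and Fasn (-0.47) were not DE. Acss2 was also not DE without HCD pool B (-0.70), and Fasn without HCD pool A (-0.83) or B (-0.77). Acacb was DE without HCD pool C (-0.70) or HCD+Gl-2 pool B (-0.72).

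Neither regulator was DE under Gl-2. Srebf1 was 10.28, 10.59 and 9.88 (log2 -0.39, adjusted p 0.183), and Mlxipl 11.44, 11.50 and 11.44 (log2 -0.12, adjusted p 0.558). Thrsp was 10.98, 11.44 and 10.22, a range wider than its difference from HCD (log2 -0.58, adjusted p 0.257). Lpin1 was 10.63, 9.62 and 10.97, with pool B far below the others, and its mean did not differ beyond that spread (log2 -0.09, adjusted p 0.908). Without that pool B the difference was above 0, at 0.30. The same pool B was the one without the high immediate early genes, and the mean of 8 fasting and glucocorticoid response genes was 9.76, 9.21 and 9.98 in pools A, B and C. Their part in the Lpin1 values was not tested. The mean of the evening clock genes was 9.71, 9.63 and 9.76 in HCD+Gl-2, above all 3 HCD arrays, with Ciart, a repressor within the clock, called 1.23 higher (adjusted p 6.97e-05), and its part in the Gl-2 results was not tested either. On liver arrays alone, Me1 was still DE (adjusted p 0.0296), with 0.0518 for Acss2, 0.0541 for Acaca, 0.0795 for Acly and 0.371 for Fasn.

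Under simvastatin, Fasn, Thrsp, Acly, Lpin1, Acacb and Me1 fell, 6 of the 10, against 0.0589% of all genes called lower. The arrays did not overlap for 9 (4.09% of all genes), with Mlxipl the exception. Fasn was 10.16, 10.58 and 9.42 (log2 -1.11, adjusted p 0.00153), and Thrsp 10.58, 11.05 and 9.60 (log2 -1.06 ± 0.24, adjusted p 0.0136). These 2 genes had the widest spread of the 10 in this group, with SDs of 0.59 and 0.74. Acly was 9.16, 9.41 and 8.92 (log2 -0.90, adjusted p 7.8e-05) and Me1 10.58, 10.85 and 10.36 (log2 -0.78, adjusted p 0.000685).

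Acacb was 8.09, 8.23 and 7.65 under simvastatin, the lowest of its 5 liver groups (log2 -0.81, adjusted p 0.000296). Its means ran from 9.12 in Control over 8.80 in HCD, 8.34 in HCD+Gl-1 and 8.22 in HCD+Gl-2 to 7.99, and none of the neighbours in that order was apart by a DE difference. Lpin1 was 9.60, 9.79 and 9.48, below all 3 HCD arrays (10.54, 10.35 and 10.60), a log2 difference of -0.87 ± 0.18 (standard error; adjusted p 0.00775). Acss2 at 9.25, 9.49 and 9.04 (log2 -0.65, adjusted p 0.0007) and Acaca at 9.54, 9.75 and 9.23 (log2 -0.66, adjusted p 0.000436) were under the fold threshold. Srebf1 was 10.27, 10.43 and 9.95 (log2 -0.42, adjusted p 0.165) and Mlxipl 11.48, 11.45 and 11.56 (log2 -0.09, adjusted p 0.732).

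Without HCD+Sim pool C, Acacb (-0.64), Me1 (-0.66) and Thrsp (-0.65) were not DE. Me1 was also not DE without HCD pool B (-0.64), and Thrsp without HCD pool A (-1.04) or B (-1.0). Acss2 was DE without HCD pool C (-0.72) or HCD+Sim pool B (-0.76), and Acaca without HCD+Sim pool B (-0.78). Of the acinar markers 7 of 8, and of the muscle markers 3 of 8, were called higher in HCD+Sim than in HCD. With pool C, where these markers were low, as the lone HCD+Sim array, all differences kept their sign. Since pool C was also the lowest pool of most of these genes in every diet, that gives no value on the markers, and their part in the result was not tested. On liver arrays alone, no member was DE, and adjusted p ran from 0.116 for Acly to 0.919 for Mlxipl. With the pool letter added to that fit as a block, Acly, Acacb, Fasn and Thrsp were DE.

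**Figure D3:**
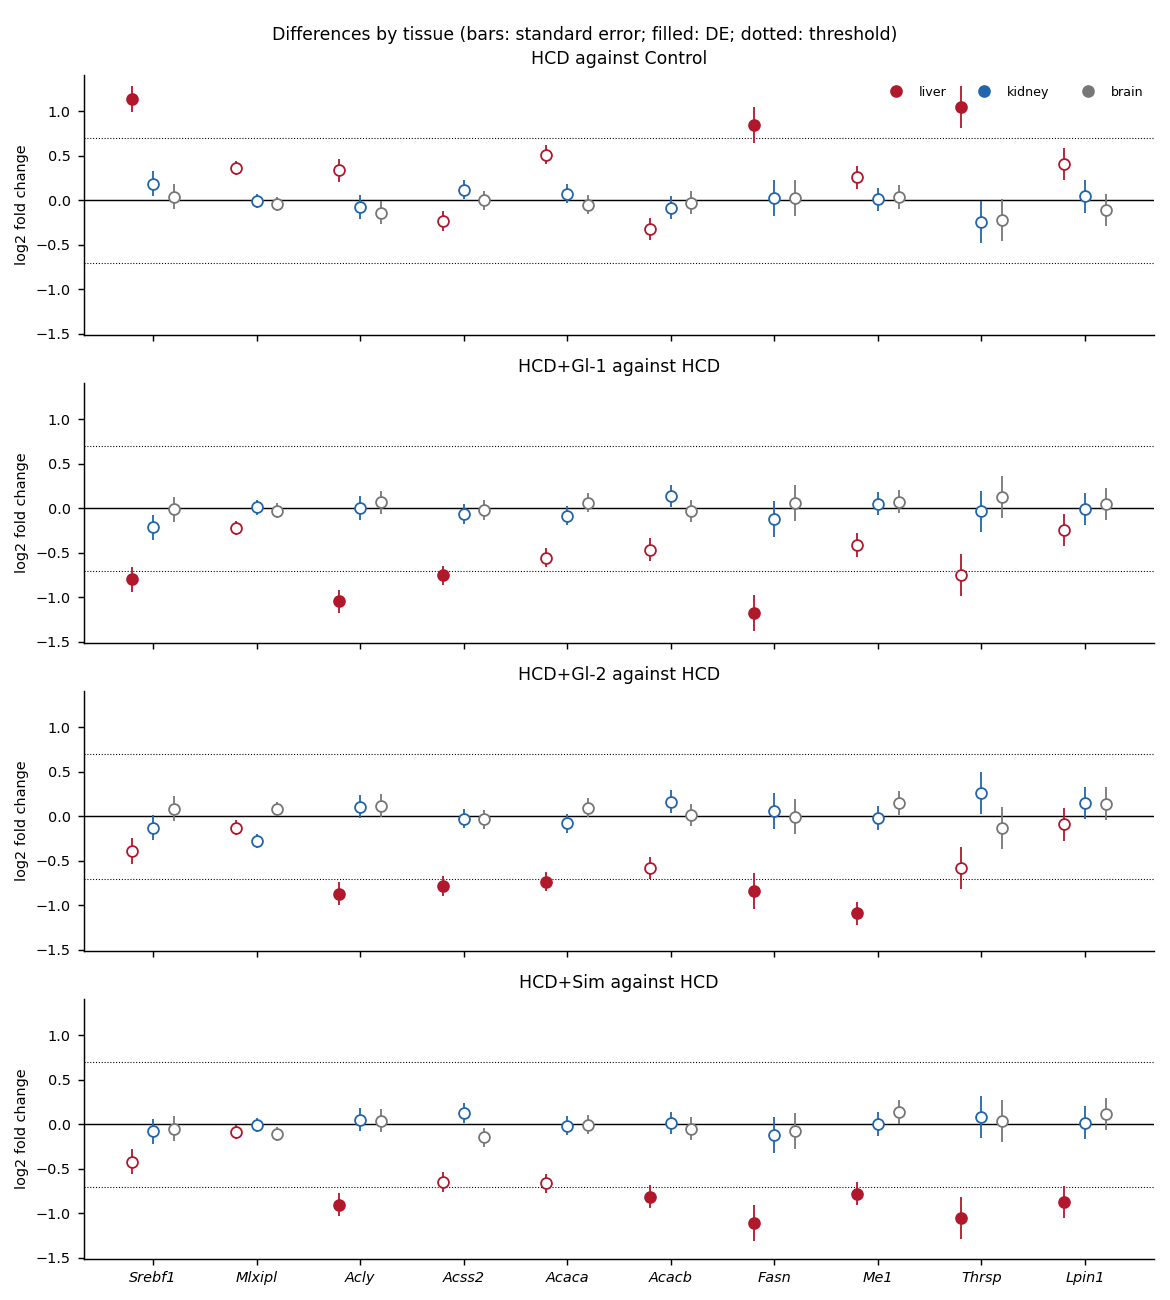
Log2 fold changes of the 10 genes in 4 comparisons, with 1 panel each, by tissue, bars for the standard error of the shared fit, filled points for DE and dotted lines at 0.7 above and below 0. The filled points are all liver points, 3 above 0 in the first panel and 4, 5 and 6 below 0 in the others.

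Extracts and simvastatin were set against each other at these single doses. Gl-2 against Gl-1 gave 0 of 10 DE genes in limma (0.172% of all genes) and 2 at an unadjusted p under 0.05, a p that 19.8% of all genes had. These were Me1 and Srebf1 (log2 0.41, 95% interval 0.12 to 0.69, adjusted p 0.0884). Gl-1 against simvastatin gave 0 of 10 (0.249% of all genes) and 4 at an unadjusted p under 0.05 (21.3% of all genes), with Lpin1 0.63 higher under Gl-1 (95% interval 0.26 to 1.00, adjusted p 0.0415). Gl-2 against simvastatin gave 1 of 10 (0.285% of all genes), Lpin1, at 0.78 higher (95% interval 0.41 to 1.15, adjusted p 0.0184). The Lpin1 arrays of these 2 groups overlapped through pool B of HCD+Gl-2. Its difference was not DE without HCD+Gl-2 pool A (0.67) or C (0.50) or HCD+Sim pool C (0.71), on pools A and B only (0.43) or on liver arrays alone (adjusted p 0.391). Fasn differed by 0.34 between the extracts (95% interval -0.07 to 0.74) and became DE without HCD+Gl-2 pool C (0.71), and Me1 became DE without HCD+Gl-1 pool A (-0.70) or B (-0.82) or HCD+Gl-2 pool B (-0.82).

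Set against Control, the treated livers split the 10 genes. Under Gl-1, Acss2 (log2 -0.98), Acacb (-0.78) and Acly (-0.71) fell, 3 of 10 against 0.195% of all genes called lower. Srebf1 was 0.34 above Control under Gl-1 and not DE, but on pools A and B only it was DE (0.73). Under Gl-2, Acss2 (-1.01), Acacb (-0.90) and Me1 (-0.83) fell (0.281% of all genes), while Srebf1 rose by 0.75 (0.303% of all genes were called higher). Under simvastatin, Acacb (-1.13) and Acss2 (-0.88) fell (0.14% of all genes) and Srebf1 rose by 0.72 (0.217% of all genes). Acss2 and Acacb were thus DE below Control in all 3 treated groups and in neither direction in HCD, with the Control arrays shared. Fasn and Thrsp were not DE against Control, with log2 differences of -0.33, 0.01 and -0.27 for Fasn and 0.30, 0.46 and -0.01 for Thrsp under Gl-1, Gl-2 and simvastatin. The mean of the muscle markers was 6.96 to 7.11 on the Control arrays, 6.38 to 6.55 under Gl-1 and 6.42 to 6.62 under Gl-2, with Acta1 and Tnnc2 called lower in both. Under simvastatin it was 6.65 to 7.75, with Myh4 called higher. The acinar mean was 6.10 to 7.81 there and 5.86 to 6.03 on Control. That of the evening clock genes was 8.79 to 9.04 on Control, 9.07 to 9.53 under Gl-1, 9.63 to 9.76 under Gl-2 and 9.23 to 9.54 under simvastatin. Ciart was called higher under Gl-1 (0.91), Gl-2 (1.57) and simvastatin (0.74). Their part in these differences was not tested. Acly was not DE without HCD+Gl-1 pool C (-0.59) or Control pool B (-0.59), Acacb without HCD+Gl-1 pool C (-0.66), and Me1 without HCD+Gl-2 pool C (-0.67). Srebf1 was not DE under Gl-2 without HCD+Gl-2 pool B (0.58) or Control pool B (0.66), and under simvastatin without pool A (0.69) or B (0.61) of HCD+Sim or pool A (0.67) or B (0.63) of Control. Acly became DE under Gl-2 without HCD+Gl-2 pool B (-0.75), as did Lpin1 (0.72). On liver arrays alone, Acss2 stayed DE under all 3 treatments, with Acacb under Gl-2 and simvastatin, while Srebf1 was not DE under Gl-2 (adjusted p 0.123) or simvastatin (adjusted p 0.226).

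In kidney and brain the same diets gave 0 of 10 DE genes in each of 8 comparisons. The shares of all genes called were 0.0408, 0.131, 0.335 and 0.14% in kidney for HCD against Control and for Gl-1, Gl-2 and simvastatin against HCD. In brain they were 0.0317, 0.00906, 0.0226 and 0%. In kidney under Gl-2, the arrays lay wholly above HCD for 4 of the 10 genes and wholly below it for 2. Of all 22080 genes, 2511 and 2004 did so. For kidney HCD against Control these counts were 3 and 1 (1231 and 1694 of all genes). Kidney Gl-1 gave 1 and 2 (1797 and 1240) and simvastatin 1 and 1 (2210 and 1480). In brain, Gl-2 gave 3 and 0 (2177 and 1048) and simvastatin 1 and 2 (1847 and 1549). Brain HCD and Gl-1 gave 0 (1461 and 1116, 1967 and 1054). Of the 40 kidney differences 36, and of the 40 in brain 39, were below 0.2 in size, and at an unadjusted p under 0.05 there was 1 in kidney (5.91% over all genes and the same 4 comparisons) and 0 in brain (6.04%). That one was Mlxipl, at 10.34, 10.38 and 10.28 in kidney HCD+Gl-2 against 10.60, 10.65 and 10.60 in HCD (log2 -0.28, adjusted p 0.076). The same 3 kidney HCD+Gl-2 arrays had the high immediate early genes, and their part in this value was not tested. The 95% intervals of these differences reached from -0.72 to 0.74, with these bounds from Thrsp in kidney. They rest on the spread shared over all tissues. For Thrsp, the SDs of the groups were 0.13 to 0.74 in liver and 0.06 to 0.19 in kidney. A shift at the fold threshold lay inside the widest intervals, but the shared spread makes them too wide for Thrsp in kidney. A fit on the kidney arrays alone also gave 0 of 10 DE genes, but its intervals were not set out. Whether the kidney arrays by their own spread exclude such a shift was therefore not tested.

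The difference between the responses of 2 tissues was tested as well. Against kidney, 1 of 10 genes differed for HCD against Control (0.149% of all genes), 1 for Gl-1 (0.222%), 4 for Gl-2 (0.326%) and 3 for simvastatin (0.254%). Against brain, the counts were 1 (0.19%), 3 (0.14%), 4 (0.276%) and 2 (0.0634%). Acly differed in the response to all 3 treatments from both other tissues. Srebf1 was the gene whose response to cholesterol differed from both. For Mlxipl, Thrsp and Lpin1 no such difference was DE, although those of Thrsp were as large as 1.29 for HCD against Control in liver minus kidney (95% interval 0.62 to 1.97, adjusted p 0.0847). With the pool letter as a block, the Thrsp difference was DE for HCD against kidney (adjusted p 0.00415) and brain (adjusted p 0.00444) and for simvastatin against kidney (adjusted p 0.00997) and brain (adjusted p 0.0288). On pools A and B only, it was DE for HCD against kidney (adjusted p 0.00189) and brain (adjusted p 0.000236) and for simvastatin against kidney (adjusted p 0.0419).

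The tissues themselves differed in most of the 10 genes on the Control diet. Against brain, liver was higher in all 10, where 15.5% of all genes were called higher. Against kidney, it was higher in 6, namely Thrsp, Acaca, Srebf1, Fasn, Acacb and Acly (6.78% of all genes), and lower in 1, Me1 (10.1%). Kidney was above brain in 5, Mlxipl, Me1, Acss2, Lpin1 and Acacb (15.7%), and below it in 3, Thrsp, Fasn and Acaca (14.2%).

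Thrsp had the widest gap between liver and kidney, at 10.42 ± 0.29 against 6.78 ± 0.06 on Control (SD, n = 3 arrays), a log2 difference of 3.64 (adjusted p 1.21e-16). Brain lay between them at 7.94 ± 0.44. Mlxipl followed another order. It was 11.22 ± 0.17 in liver, a little less in kidney (10.63 ± 0.06) and far lower in brain (6.73 ± 0.12), a log2 difference of 4.49 from liver (adjusted p 8.56e-36). Me1 was highest in kidney, 11.88 ± 0.05 against 11.12 ± 0.24 in liver and 8.94 ± 0.06 in brain. Acss2 was 10.38 ± 0.08 in kidney and 10.13 ± 0.27 in liver on Control, with overlapping arrays (log2 -0.24, 95% interval -0.46 to -0.02, adjusted p 0.068). Acly without Control liver pool B (0.61) or Control kidney pool C (0.67), and Me1 without Control liver pool C (-0.64), did not pass the fold threshold between liver and kidney.

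With all diets together, the liver arrays overlapped those of another tissue in some genes, through the spread between pools as well as between diets. Over all 15 arrays of each tissue, Acly reached from 8.71 to 10.20 in liver, a span that held its whole kidney range of 8.89 to 9.07 and nearly all of its brain range of 8.69 to 9.01. Fasn reached from 9.42 to 11.30 in liver and overlapped brain (9.18 to 9.55) but not kidney (8.18 to 8.58). The overlap with brain came from HCD+Sim pool C alone (9.42). Lpin1 overlapped between liver and kidney, on Control too (9.65 in liver pool C, 9.54 to 9.67 in kidney). Srebf1, Mlxipl, Acaca and Thrsp were above both other tissues on all 15 liver arrays, and Me1 was below kidney and above brain on all of them. Each gene has a probe set of its own, so levels are compared within a gene and not between genes.

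**Figure D4:**
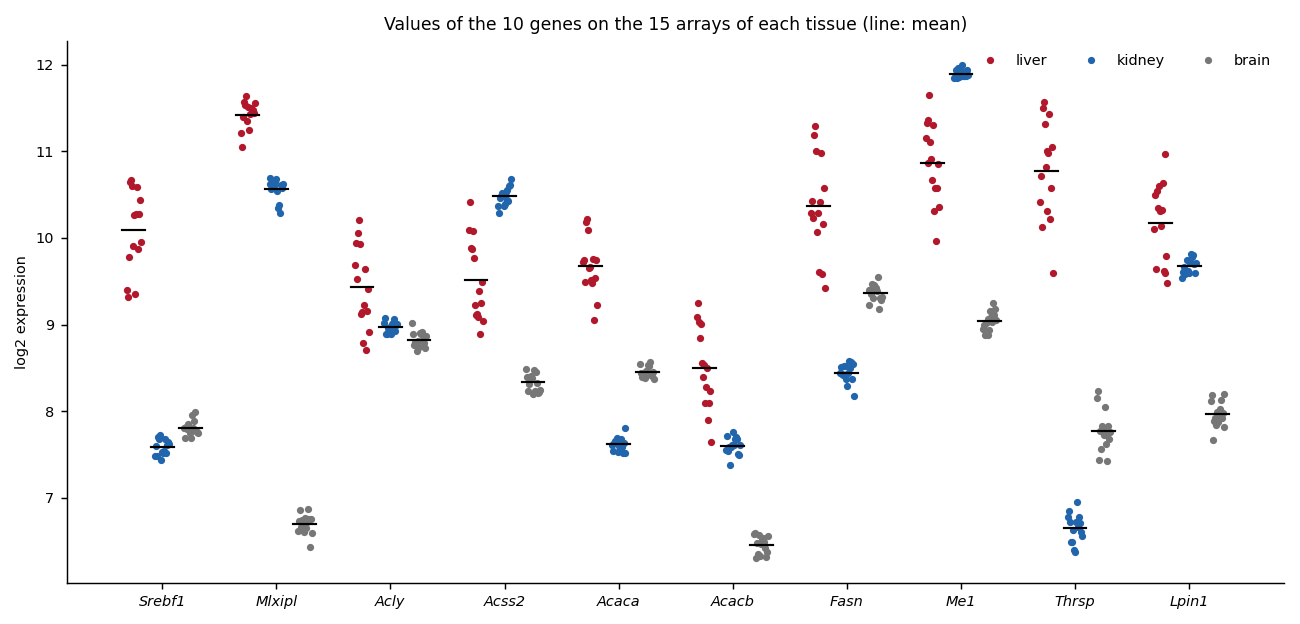
Log2 expression of the 10 genes on the 15 arrays of each tissue, all diets together, with a point for each array and a line at the mean. Liver points spread over 8.71 to 10.20 for Acly and 9.60 to 11.57 for Thrsp, while the kidney points of each gene keep to a narrow band.

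Between pools of the same diet, most of the 10 genes were high and low together in liver. After each group mean was taken off, the median r of a gene with the 9 others over the 15 liver arrays was 0.89 for Acly, 0.86 for Acaca, 0.83 for Thrsp, 0.81 for Acss2 and Acacb, 0.80 for Fasn, 0.60 for Srebf1 and 0.52 for Me1. Fasn and Thrsp were the closest pair (r 0.97). Mlxipl (-0.16) and Lpin1 (-0.35) stood outside, and Mlxipl ran against Me1 (r -0.70). With the group means kept in, Srebf1 was closest to Mlxipl (r 0.86) and had r of -0.09 with both Acss2 and Acacb. These values are a description of 15 arrays that share pools, and no p is attached.

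Genes outside the 10 with the highest r over the 15 liver arrays were Nsdhl (0.98), Fdps (0.98) and Dhcr7 (0.94) for Acss2 and Dhcr7 (0.96), Fdps (0.92) and Fads1 (0.91) for Acacb. For Fasn they were Tkt (0.94), Gpi1 (0.92) and Pgd (0.91), for Thrsp Dock8 (0.87), Gpi1 (0.84) and Tkt (0.81), for Acly Qdpr (0.96), Pgd (0.95) and Khk (0.94), and for Acaca Pklr (0.95), Gulo (0.93) and Gpi1 (0.92). Tkt, Pgd, Gpi1, Fdps and Dhcr7 came up for more than 1 gene. Srebf1 was nearest to Erbb4 (0.91), Apoc1 (0.89) and Zbtb39 (0.88), Mlxipl to Inmt (0.95), Nr1d1 (0.89) and Dopey2 (0.88), Me1 to Slc17a4 (0.93), Xrcc5 (0.92) and Lactb2 (0.91), and Lpin1 to Gatad2b (0.83), Nup35 (0.82) and Slc37a4 (0.81). Over the 15 group means, where tissue sets most of the pattern, Insig1 was among the 3 nearest of both Acaca (0.99) and Fasn (0.98), and Gstm7 of the same pair (0.99 and 0.96).

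The genes around this chain were looked at in the same liver comparisons. Of 60 genes in 8 lists (supply of citrate and NADPH, SREBP and ChREBP control, carboxylase partners, elongation and esterification, lipin partners and mitochondrial fatty acid synthesis), 58 were measured. None was called higher in the 4 comparisons of HCD with Control and of Gl-1, Gl-2 and simvastatin with HCD. Of all 22080 genes, 23, 21, 46 and 44 were called higher there. Called lower were G6pdx under HCD, Elovl5 under Gl-2 and Elovl6 under simvastatin, 1 gene each, and none under Gl-1. The shares of all genes called lower were 0.14% for HCD, 0.0679% for Gl-1, 0.0951% for Gl-2 and 0.0589% for simvastatin. With so few genes called at all, these counts say little about the lists. The list medians were -0.06 to 0.21 for HCD, -0.16 to 0.07 for Gl-1, -0.30 to 0.05 for Gl-2 and -0.15 to 0.03 for simvastatin.

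G6pdx, the entry enzyme of the pentose phosphate path and another source of NADPH, fell by 0.90 under HCD against Control (adjusted p 0.00338), opposite to Fasn, and was below Control by 0.92 to 1.28 in the treated groups. The NADPH list did not fall with it under HCD, as the mean of its 7 measured genes was 8.28 in liver Control and 8.29 in liver HCD. Elovl5, an elongase of polyunsaturated fatty acids, fell by 0.73 under Gl-2 against HCD (adjusted p 1.83e-05) and by 0.88 against Control. Elovl6, which lengthens palmitate, fell by 0.82 under simvastatin (adjusted p 0.000846). Insig2, which holds SREBPs in the endoplasmic reticulum, fell by 0.81 under Gl-2 against Control (adjusted p 0.000119). In the fasting and glucocorticoid list, Pdk4, a brake on pyruvate oxidation, fell below Control by 0.78 in HCD, 0.72 in HCD+Gl-1 and 0.84 in HCD+Gl-2.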

How the data were processed

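RNA pools of liver, kidney and brain were hybridised to Affymetrix mouse gene st v1.0 arrays. Per the methods, the authors corrected background with RMA, quantile normalized with oligo, reduced a batch effect with ComBat (batches not stated) and kept the probe set of highest interquartile range per gene, and the deposited values are log2 expression. These steps can draw groups together or apart in ways the table does not show. 1 linear model of 15 group means was fitted to 45 arrays with limma 3.58.1 (R 4.3.3), with empirical Bayes moderation and adjustment over 22080 genes within each contrast. The model was tested on simulated data with independent arrays and the same spread of a gene in all tissues. That simulation held neither the shared pools nor the wider liver spread of these genes, so it does not test their effect on p-values. The 10 genes, the gene lists, the tests and the rule for named genes (all 10, list genes called in liver, and the 3 genes most alike) were chosen with earlier results of these data known. Pairing by pool letter was judged over all genes and required every correlation of deviations to be over 0.1. That held in liver HCD+Gl-2 against HCD+Gl-1 (0.14 to 0.27) and against HCD+Sim (0.11 to 0.20), and in no other comparison. The rule was not applied to the 10 genes, where pool B was highest in 41 and pool C lowest in 40 of 50 liver combinations. The main fit left the letters out for all of them. Alternatives were pools A and B only, a fit on the compared tissues only, the pool letter as a block, other moderation, a filter on dim genes, quantile normalization within tissue, the adjusted p alone and each array left out. Promoter windows came from RefSeq. Figures were drawn with matplotlib 3.10.9.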

Additional observations from a re-analysis of the deposited data

Results flagged for a closer look

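Some responses differed between tissues in the test of the difference itself, with log2 fold changes and limma adjusted p given for liver minus the other tissue. For HCD against Control, Srebf1 rose more in liver, by 0.95 against kidney (adjusted p 0.0197) and by 1.1 against brain (adjusted p 0.00364). For Gl-1, the liver value of Acly was lower by -1.05 against kidney and -1.11 against brain, and against brain that of Acss2 by -0.73 and that of Fasn by -1.24. For Gl-2, the difference against kidney was -0.98 for Acly, -0.76 for Acss2, -0.75 for Acacb and -1.07 for Me1, and against brain -0.99 for Acly, -0.75 for Acss2, -0.83 for Acaca and -1.24 for Me1. For simvastatin, it was -0.96 for Acly, -0.78 for Acss2 and -0.83 for Acacb against kidney, and -0.94 for Acly and -0.92 for Me1 against brain. Adjusted p lay between 0.000447 and 0.0359 over these 19 values. With each of the 12 arrays behind a value left out in turn, all differences for Acly other than that under simvastatin against brain, both for Me1 under Gl-2 and that for Srebf1 against brain stayed DE in all 12 fits. The others were DE in fewer, with 2 of 12 for Fasn, 3 and 6 for Acacb under Gl-2 and simvastatin, 3 for Me1 and 4 for Acly under simvastatin against brain, 7 for Srebf1 against kidney, 11 for Acaca, and 10, 10, 7 and 9 for Acss2 (Gl-2 and simvastatin against kidney, Gl-1 and Gl-2 against brain). Samples far from their group were not tested, since groups held 3 arrays.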

How the results depend on the processing

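The counts of DE genes among the 10 changed with the arrays that entered the fit. Mainly the larger changes are listed, and a count not given may have moved by less. In a fit on the compared tissues only, the counts were 1 for HCD against Control, 1 for Gl-1, 1 for Gl-2 and 0 for simvastatin against HCD, 0 for Gl-2 against simvastatin, 1 for Gl-1 and 2 for Gl-2 against Control. The tissue differences in response then numbered 0 for HCD and 1 for simvastatin against kidney, and 1, 2 and 0 for Gl-1, Gl-2 and simvastatin against brain. Counts over all genes fell in step, from 54, 36, 67 and 57 to 21, 14, 17 and 5 in the first 4 comparisons. With the pool letter as a replicate block in the liver fit, a setting chosen after seeing the data, 2, 3, 4 and 4 of the 10 were DE. On pools A and B only, the counts were 2 for Gl-2 against HCD, 0 for Gl-2 against simvastatin, 3, 3 and 6 for the responses to HCD, Gl-1 and simvastatin against kidney, and 3 for HCD against brain. With the replicate block on all arrays, they were 3, 2 and 6 against kidney for HCD, Gl-1 and simvastatin, and 3 and 5 against brain for HCD and simvastatin. The block also gave 5 for Gl-1 against HCD, adding Thrsp (adjusted p 0.00781). It changed no call in the 2 comparisons where the letters paired the samples over all genes. By the adjusted p alone, the counts were 5 for HCD and 5 for simvastatin against Control, 1 for Gl-2 against Gl-1, 1 for Gl-1 against simvastatin and 2 for the Gl-1 response against kidney. Against HCD they were then 6 for Gl-1, 6 for Gl-2 and 8 for simvastatin. With HCD+Sim pool C as the lone array of its group, also chosen after seeing the data, the counts were 1 for Gl-1 and 2 for Gl-2 against simvastatin and 5 for simvastatin against Control.

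With each array left out in turn, the counts ran from 1 to 3 for HCD against Control, 3 to 5 for Gl-1, 1 to 6 for Gl-2 and 3 to 8 for simvastatin against HCD, 0 to 1 for Gl-2 against Gl-1 and against simvastatin, 1 to 3, 3 to 5 and 2 to 3 for Gl-1, Gl-2 and simvastatin against Control, and 6 to 7 for liver against kidney. For responses they ran from 0 to 1, 1 to 3, 2 to 6 and 1 to 7 against kidney, and from 1 to 2, 1 to 4, 2 to 6 and 0 to 5 against brain, for HCD, Gl-1, Gl-2 and simvastatin. Over all 290 values of a gene in a comparison, called or not, the sign turned for 50 with an array left out and for 60 under any setting, and none of these was DE in the shared fit or where it turned. The 117 values DE under at least 1 setting were followed one by one. Of those, without HCD+Sim pool C, the sign turned for Thrsp in Gl-1 against simvastatin (-0.10, with up to 0.63 when another array was left out), Fasn in Gl-2 against simvastatin (-0.043) and Fasn in simvastatin against Control (0.051, otherwise down to -0.53). Without HCD+Gl-2 pool B it turned for Fasn in Gl-2 against simvastatin (-0.052, otherwise up to 0.64), and, on pools A and B only, for Lpin1 in Gl-2 (-0.18) and Fasn in simvastatin (0.0073) against Control. All 8 kidney and brain comparisons kept 0 DE genes under every setting run. With 3 arrays a group, precision was limited by their number.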
